A study of Homo sapiens with 24 samples.

Results

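The 2 arrays labelled VCaP after 24 h with 10 µM I-BET762 were set directly against the 2 arrays labelled VCaP after 24 h with 0.5 µM, which makes 4 of the 24 arrays of the series. I-BET762 (GSK525762A) is a small molecule that occupies the acetyl-lysine pockets of the BET family of bromodomain proteins, BRD2 and BRD3 among them. The series covers 4 prostate cancer cell lines (LNCaP, VCaP, PC3 and NCI-H660), each with 2 independent biological replicates in DMSO vehicle, 0.5 µM and 10 µM, on Affymetrix U133 Plus 2.0 arrays. VCaP is an established line from a prostate cancer metastasis, without any engineered allele, and all compared cultures were treated for the same time with the same compound. The question was which genes that the lower concentration had moved went further at the higher one, which held their level, and which came back towards vehicle.

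A gene entered where its mean signal reached 100 in at least one of the 2 concentrations. Of 54613 probe sets (the array's units of measurement, several to a gene), 26061 met this floor, and they left 11564 genes of the 19775 that the annotation names. At the edge of the floor, RAD52 was just inside with a mean of 100.02 at 10 µM and ITGA10 just outside with 99.96 at 0.5 µM. A probe set was called different where limma's adjusted p was under 0.1 and the fold was over 2, and is said to have passed where the adjusted p was under 0.1 whatever the fold. Adjustment ran over all 54613 probe sets, and the fit took its spread from the 16 treated arrays of all lines without the vehicle arrays. All differences below are log2 signal at 10 µM minus 0.5 µM unless another pair is named.

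The label VCaP did not match the markers of the line. ERG, the ETS factor placed under the TMPRSS2 promoter by the VCaP fusion, read 5.85 to 28.3 on the 6 arrays labelled VCaP and 2867 to 7084 on the 6 labelled LNCaP, and each of its 4 probe sets separated the labels in that direction. CRISP3 and TDRD1, which accompany ERG, read 4.90 to 37.6 and 6.88 to 28.1 on the arrays labelled VCaP, under the floor. ETV1, the ETS gene rearranged in LNCaP, read 192 to 408 on the arrays labelled VCaP, against 14.5 to 90.3 on those labelled LNCaP. The prostate secretory gene KLK3 (4199 to 20567) and the luminal keratins KRT8 and KRT18 were bright, and the neuroendocrine markers CHGA and INSM1 and the basal keratins KRT5 and KRT14 were below 100 on all 6. SYP, another neuroendocrine marker, read 16.4 to 119. The cells are therefore called "labelled VCaP" throughout. The 6 arrays labelled VCaP had a trimmed mean of 500, medians of 73.0 to 83.6, and correlations between replicates of 0.942 to 0.946 on log2 signal.

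BET proteins bind acetylated histones and help RNA polymerase II through early elongation, in large part by bringing in the kinase P-TEFb. Genes with dense acetylation nearby, MYC among them, tend to lose transcription when the pockets are filled, while HEXIM1, an inhibitor of P-TEFb, and many histone genes tend to rise. Fewer cells of one kind and less RNA per cell cannot be told apart in bulk RNA, and this holds for every value that follows.

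Between the 2 concentrations 349 probe sets were called, 153 higher and 196 lower at 10 µM (0.639% of all tested, 0.28% higher and 0.359% lower). With each array centred on its own median, 97 were higher and 203 lower. By gene, 72 were called higher (0.623% of the 11564 detected) and 101 lower (0.873%), 173 in all (1.5%), with differences between -4.28 and 2.60. In each of the 173 the 4 arrays of the 2 concentrations did not overlap. That is common by itself: over all detected genes both arrays at 10 µM lay above both at 0.5 µM in 30.9% and below in 32.8%. Without the fold minimum 600 probe sets passed higher (1.1%) and 602 lower (1.1%), 2.2% in all, or 309 genes higher (2.67%) and 353 lower (3.05%), 5.72% in all. These counts rest on the spread shared with the other lines. The 4 arrays fitted alone gave 0 calls by limma, with 644 probe sets at an unadjusted p under 0.05 and over 2-fold. The 8 treated arrays labelled VCaP and LNCaP gave 157, and leaving out either array at 10 µM gave 225 (replicate 1) and 221 (replicate 2).

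Each called probe set was then placed by its change at 0.5 µM against vehicle, where 459 were called higher (0.84%) and 876 lower (1.6%), 2.44% in all. At 10 µM against vehicle 1528 were higher (2.8%) and 1806 lower (3.31%), 6.1% in all. These contrasts share arrays with the one between the concentrations, so their values are given side by side and not related by a test. Of the 876 that were lower at 0.5 µM, 43 fell further, 5 moved back up and 470 were held low, meaning that the second step was not called and its 95% interval lay within 1 log2 unit either way. The other 358 could not be placed at this precision. Of the 459 higher at 0.5 µM, 21 rose further, 3 moved back down, 278 were held high and 157 could not be placed. A further 88 probe sets were called higher and 130 lower at 10 µM, against 0.5 µM and against vehicle alike, without a call at 0.5 µM. Where the limit for holding was set at 1.5-fold, 163 in place of 470 were held low and 59 in place of 278 held high.

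**Figure D1:**
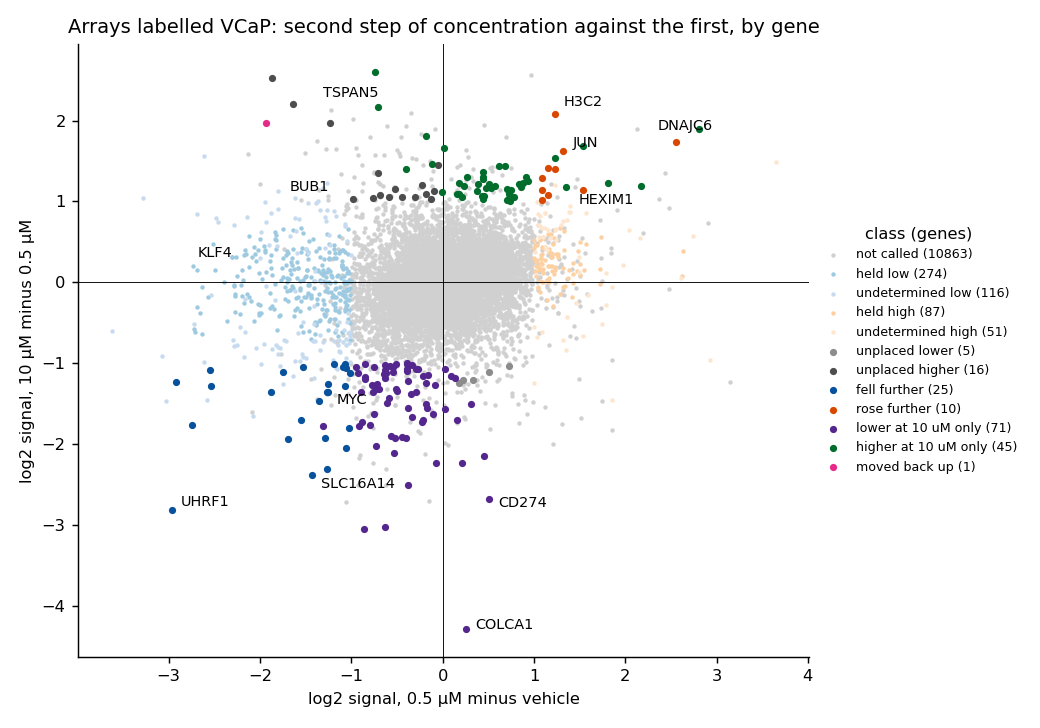
Log2 signal at 10 µM minus 0.5 µM (vertical) against 0.5 µM minus vehicle (horizontal) for the 11564 detected genes on the arrays labelled VCaP, coloured by class, with the number of detected genes in each. Genes held low (pale blue) lie along the horizontal line on the left, 25 genes fell further (dark blue), 10 rose further (orange), and 1 gene moved back up (pink); the axes share the 0.5 µM arrays.

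MYC, which encodes the growth-driving transcription factor c-Myc, went down at both steps. Its signal was 6063 and 5912 in vehicle, 2479.8 and 2520.5 at 0.5 µM and 999 and 961 at 10 µM. The step between the concentrations (log2 difference -1.35 ± 0.12 (SE), adjusted p = 0.00201 by limma) was about as large as the step at 0.5 µM (-1.26). No 2 arrays of different concentrations overlapped, and MYC passed with any of the 4 treated arrays left out.

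UHRF1, which guides DNA methylation to newly replicated strands, was among the 25 genes of this class. It read 2892 and 2709 in vehicle, 327 and 392 at 0.5 µM and 58.9 and 44.1 at 10 µM, so that the last 2 arrays lay under the floor and the gene was at least 3.59-fold lower at 10 µM than at 0.5 µM (limma adjusted p = 0.00103). SLC16A14, a member of the monocarboxylate transporter family, read 1724 and 1760.1 in vehicle, 596 and 701 at 0.5 µM and 146 and 104 at 10 µM (log2 difference -2.39 ± 0.18 (SE), adjusted p = 0.00105). KCTD15, a BTB-domain protein, gave 165 and 145 at 10 µM, against 623 and 662 at 0.5 µM, and vehicle stood at 1433 and 1241 (log2 difference -2.05 ± 0.23 (SE), adjusted p = 0.00733). OAF gave 26.3 and 36.4 at 10 µM, against 189 and 124 at 0.5 µM, at least 1.57-fold lower at 10 µM (adjusted p = 0.0154). In all 4 the arrays at 10 µM lay below both at 0.5 µM, which lay below both vehicle arrays, and each passed with any treated array left out.

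Other genes that fell at both steps included CREB3L4, a membrane-bound CREB family factor of the prostate, at 599.6 and 565 at 10 µM, against 1967 and 2085 at 0.5 µM (log2 difference -1.80 ± 0.13 (SE), adjusted p = 0.00103), and TEAD4, a DNA-binding partner of YAP, at 129 and 119 at 10 µM, against 269.6 and 332 at 0.5 µM (log2 difference -1.28 ± 0.22 (SE), adjusted p = 0.0313); these 2 were chosen after their values were seen. Of the 2 TEAD4 probe sets at the floor 1 passed lower, and the other differed by -0.18. SYT4, a synaptotagmin of secretory vesicles, read 63.1 and 67.9 at 10 µM, against 196 and 231 at 0.5 µM, at least 2.14-fold lower at 10 µM (limma adjusted p = 0.0108). The remaining members of the class include DTL, MCM5, RRM2 and E2F8, given with the replication genes below. The class held 43 probe sets, and 27 and 23 without the first and the second array at 0.5 µM.

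Of the genes without a call at 0.5 µM, 71 were called lower and 45 higher at 10 µM, against 0.5 µM and against vehicle alike. By comparison, 25 of the 495 genes called lower at 0.5 µM fell further, and 10 of the 148 called higher rose further. These starting groups are far smaller than the set without a call, so the counts cannot be compared as rates. A missing call does not mean that a gene stood still at 0.5 µM, and some lay away from vehicle there without reaching a call. The counts of probe sets were the less stable here. Without 1 of the 4 treated arrays, 72 to 81 in place of 130 were lower and, without an array at 10 µM, 55 (replicate 1) and 52 (replicate 2) in place of 88 were higher.

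CD274, which encodes the immune checkpoint ligand PD-L1, was among them. It read 737 and 809 in vehicle, 1106 and 1095 at 0.5 µM and 171 and 174 at 10 µM, so that it lay above vehicle on both 0.5 µM arrays (difference 0.51, adjusted p = 0.112, not called) and far below on both at 10 µM (log2 difference -2.67 ± 0.21 (SE), adjusted p = 0.00131). Both of its probe sets passed lower. COLCA1, a gene of a colorectal cancer risk locus, gave 10.4 and 54.3 at 10 µM, against 415 and 517 at 0.5 µM, at least 4.66-fold lower at 10 µM (adjusted p = 0.03); it no longer passed without the second array at 0.5 µM (adjusted p = 0.122) or the first at 10 µM (0.102). P2RX5, an ATP-gated ion channel, gave 92.8 and 30.2 at 10 µM, against 424 and 455 at 0.5 µM, at least 4.4-fold lower (adjusted p = 0.0108). The divergent transcript ADCY6-DT gave 12.6 and 27.5 at 10 µM, against 184 and 124 at 0.5 µM (adjusted p = 0.0744), and it did not pass without any 1 of the 4 arrays (0.131 to 0.311).

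SPDEF, a luminal ETS factor of the prostate, stood at 741 and 529 at 10 µM, against 2286 and 2463 at 0.5 µM, with vehicle at 3484 and 3349.8 (log2 difference -1.92 ± 0.19 (SE), adjusted p = 0.00356). Of its 5 probe sets at the floor 3 passed lower, and the others reached up to 0.36. ERBB3, a receptor of the EGFR family, gave 1482 and 1562 at 10 µM, against 3184 and 3329 at 0.5 µM (log2 difference -1.10 ± 0.15 (SE), limma adjusted p = 0.0137). Of the 3 ERBB3 probe sets at the floor 2 passed lower, and the smallest difference was -0.13. BOK, a pro-apoptotic BCL2 relative, gave 397 and 416 at 10 µM, against 826 and 826 at 0.5 µM (log2 difference -1.02 ± 0.17 (SE), adjusted p = 0.0246), and no longer passed without the first array at 10 µM (adjusted p = 0.121). All 3 lay below both vehicle arrays at 0.5 µM without a call there.

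The next 6 genes, all called lower at 10 µM, were picked after their values were seen, apart from PARP9. PARP9 and DTX3L, whose products form a complex that modifies ubiquitin, gave 264 and 218 at 10 µM, against 603 and 611 at 0.5 µM, and 265 and 317 at 10 µM, against 530.0 and 715 at 0.5 µM, in that order of genes, with differences of -1.34 (adjusted p = 0.0098) and -1.09 (adjusted p = 0.0406). RLN1 and RLN2, which encode the peptide hormone relaxin, differed by -1.67 (adjusted p = 0.00733) and -1.70 (adjusted p = 0.0661). These 2 genes are close copies, and probes of one may read the other. ACKR3, a scavenging chemokine receptor, gave 417 and 369 at 10 µM, against 1356 and 1237 at 0.5 µM (log2 difference -1.72 ± 0.29 (SE), limma adjusted p = 0.0255). ZMYND8, a reader of histone marks, gave 409 and 421 at 10 µM, against 947 and 1030.2 at 0.5 µM (log2 difference -1.25 ± 0.14 (SE), limma adjusted p = 0.00607). Of the ACKR3 probe sets at the floor 1 of 2 passed lower, and of ZMYND8 2 of 4, where the smallest difference was -0.17. For PARP9 1 of 2 passed lower, and the other differed by -0.53.

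**Figure D2:**
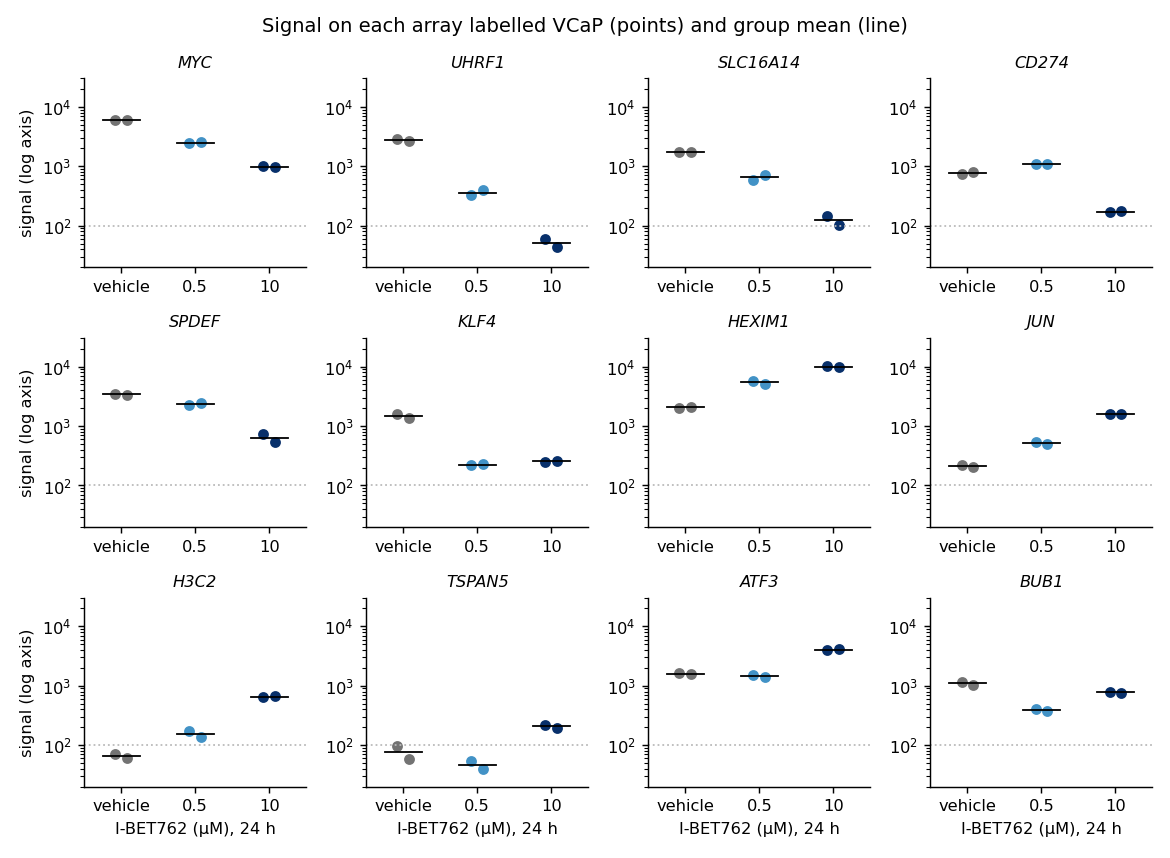
MAS5 signal (log axis) of 12 genes on each of the 6 arrays labelled VCaP, in vehicle, 0.5 µM and 10 µM I-BET762; each dot shows 1 array, each bar the mean of a pair, and the dotted line the floor of 100. MYC, UHRF1 and SLC16A14 step down at both concentrations, CD274 and SPDEF fall at 10 µM, KLF4 is as low at 0.5 µM as at 10 µM, JUN and H3C2 step up at both, and BUB1 lies higher at 10 µM (795 and 768) than at 0.5 µM (413 and 381).

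Among the 10 genes that rose at both steps, H3C2, a histone H3 gene of the large cluster, read 71.8 and 60.3 in vehicle, 175 and 136 at 0.5 µM and 636 and 666 at 10 µM (log2 difference 2.08 ± 0.31 (SE), adjusted p = 0.0168). DNAJC6, the neuronal auxilin that uncoats clathrin vesicles, read 11.6 and 27.2 in vehicle, 101 and 107 at 0.5 µM and 347 and 346 at 10 µM (log2 difference 1.74 ± 0.14 (SE), adjusted p = 0.00134). JUN, the AP-1 subunit, read 217 and 203 in vehicle, 541 and 508 at 0.5 µM and 1612 and 1616 at 10 µM (log2 difference 1.62 ± 0.15 (SE), adjusted p = 0.0031). TUBA1A, an alpha-tubulin, gave 7288 and 6306 at 10 µM, against 2748 and 2347 at 0.5 µM, and vehicle stood at 1154 and 1134 (log2 difference 1.42 ± 0.14 (SE), adjusted p = 0.0036). Each of the 4 passed with any treated array left out, and none had overlapping arrays. KLF5, an epithelial Krüppel-like factor chosen after its values were seen, gave 599 and 715 at 10 µM, against 343 and 303 at 0.5 µM (log2 difference 1.02 ± 0.15 (SE), adjusted p = 0.0179).

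Of the 45 genes called higher at 10 µM alone, TSPAN5, a tetraspanin that escorts ADAM10, gave 222 and 193 there, against 53.9 and 39.4 at 0.5 µM. It was at least 2.08-fold higher at 10 µM (limma adjusted p = 0.00103). Vehicle stood at 97.1 and 58.2, also under the floor. Of its 3 probe sets 2 passed, and the lowest difference was 0.08. CRIM1, a membrane protein that binds bone morphogenetic proteins (BMPs), gave 153 and 170.3 at 10 µM, against 52.4 and 40.6 at 0.5 µM, at least 1.62-fold higher (adjusted p = 0.00469). CDKN2B, the CDK4 and CDK6 inhibitor p15, gave 218 and 192 at 10 µM, against 66.3 and 61.4 at 0.5 µM, at least 2.05-fold higher (adjusted p = 0.0036). SERPINI1, the neuronal serpin neuroserpin, gave 2107 and 2292 at 10 µM, against 736 and 891 at 0.5 µM (log2 difference 1.44 ± 0.14 (SE), adjusted p = 0.0036). VIM, the intermediate filament of mesenchymal cells, gave 430.5 and 432 at 10 µM, against 155 and 172 at 0.5 µM (log2 difference 1.40 ± 0.18 (SE), adjusted p = 0.0107), while ZEB1 stayed under the floor and SNAI2 overlapped between the groups (254 and 153 at 10 µM, against 171 and 151 at 0.5 µM).

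NLRP8 and TRPC1, a calcium channel subunit, had large differences from dim signals. NLRP8 gave 206 and 185 at 10 µM, against 26.2 and 39.6 at 0.5 µM, at least 1.96-fold higher (adjusted p = 0.0605), and TRPC1 gave 238.0 and 332 at 10 µM, against 74.1 and 77.2 at 0.5 µM, at least 2.85-fold higher (adjusted p = 0.049). Neither passed without any 1 of the 4 treated arrays (adjusted p 0.134 to 0.237 and 0.121 to 0.231).

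The stress regulators ATF3 and DDIT3 belonged to the same class. ATF3, a factor induced by many stresses, read 1646 and 1548 in vehicle, 1524 and 1422 at 0.5 µM and 3981 and 4117 at 10 µM (log2 difference 1.46 ± 0.12 (SE), adjusted p = 0.00133), so the 0.5 µM arrays lay below both vehicle arrays and the 10 µM arrays above them. DDIT3, the C/EBP relative CHOP of the unfolded protein response, read 325 and 524 in vehicle, 771 and 651 at 0.5 µM and 1488 and 1468 at 10 µM (log2 difference 1.06 ± 0.13 (SE), adjusted p = 0.00994). Of the 41 detected genes of the unfolded protein response and ATF4 list they were the 2 that passed higher (4.88%, with 2.67% of all detected genes). SDF2L1 and CBS passed lower (4.88%, with 3.05%, differences -0.68 and -0.58). The list's median was -0.06, with -0.002 over all detected genes. SDF2L1 and CBS did not pass without any 1 of the treated arrays. ATF4 and CEBP factors share the letters TGATGCAA, which were in 13.9% of 36 matched promoters of the list and 0.923% of all 27305 in the RefSeq set, and in neither ATF3 nor DDIT3.

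ID1, ID2 and ID3, the inhibitors of DNA-binding factors that BMP signals induce in many cells, were all called higher, and were picked after their values were seen. ID1 gave 2418 and 2007 at 10 µM, against 927 and 964 at 0.5 µM (log2 difference 1.22 ± 0.13 (SE), adjusted p = 0.00622). ID2 gave 2522 and 2640.2 at 10 µM, against 1295 and 1278 at 0.5 µM (log2 difference 1.004 ± 0.12 (SE), adjusted p = 0.00974). Of the 2 ID2 probe sets at the floor 1 passed higher, and the other differed by 0.45. ID3 read 408 and 448 in vehicle, 284 and 241 at 0.5 µM and 713 and 629 at 10 µM (log2 difference 1.36 ± 0.13 (SE), adjusted p = 0.0036), with the 0.5 µM arrays below vehicle and the 10 µM arrays above. CITED2, a transcriptional co-regulator also picked after its values were seen, gave 4965 and 4721 at 10 µM, against 2145 and 1974 at 0.5 µM (log2 difference 1.23 ± 0.14 (SE), adjusted p = 0.00622).

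Genes that changed at 0.5 µM and were held after that came next. KLF4, a Krüppel-like factor, read 1562 and 1389.7 in vehicle, 217 and 226 at 0.5 µM and 248 and 262 at 10 µM, so nearly its whole fall was in place at 0.5 µM (10 minus 0.5 µM, 0.20, 95% interval -0.15 to 0.55). LMNB1, which encodes a nuclear lamina protein of dividing cells, read 4144 and 4034 in vehicle, 589 and 682 at 0.5 µM and 584 and 451 at 10 µM (-0.30, interval -0.74 to 0.13). EZH2, the histone H3 methyltransferase of Polycomb complex 2, read 1259 and 1171 in vehicle, 423 and 340.4 at 0.5 µM and 370.3 and 410.3 at 10 µM (0.04, interval -0.27 to 0.35), and the treated arrays overlapped. MLKL, the executor of necroptosis, was at 209.7 and 198 in vehicle and under the floor on all 4 treated arrays, so no difference between the concentrations could be read.

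The 285 genes held low include some that passed without the fold minimum and some that, like MLKL, lay under the floor at both concentrations. MCM10, a replication initiation factor, read 1714 and 1738 in vehicle, 239.8 and 288 at 0.5 µM and 172 and 172 at 10 µM (log2 difference -0.61 ± 0.15 (SE), adjusted p = 0.0886), and did not pass without any 1 of the treated arrays (adjusted p 0.117 to 0.312). EXO1, an exonuclease of mismatch repair, had a mean at the floor only at 0.5 µM (93.9 and 127, against 699 and 742 in vehicle), with 64.0 and 83.5 at 10 µM, a difference that did not pass (adjusted p = 0.18).

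Of the 87 genes held high, RCBTB2 read 190.5 and 172 in vehicle, 605 and 602 at 0.5 µM and 835 and 954 at 10 µM (0.57, interval 0.23 to 0.90). CYP46A1, the cholesterol 24-hydroxylase of brain, gave 133.4 and 179 at 10 µM, against 112 and 125 at 0.5 µM, and vehicle stood at 17.6 and 20.7 (0.38, interval -0.21 to 0.98). The antisense transcript SVIL-AS1 gave 237.8 and 250.5 at 10 µM, against 222 and 212 at 0.5 µM (0.17, interval -0.15 to 0.49). ATP6AP1L gave 252 and 315 at 10 µM, against 316 and 226 at 0.5 µM, overlapping, against 33.0 and 56.6 in vehicle. H2BC21, a histone H2B gene with polyadenylated transcripts, read 4710.5 and 4625 in vehicle, 13502 and 13004 at 0.5 µM and 15814 and 15211 at 10 µM (0.23, interval -0.03 to 0.49). TXNIP, a thioredoxin-binding arrestin outside the class because it was under 2-fold above vehicle at 0.5 µM, gave 18835 and 17436 at 10 µM, against 16395 and 15805 at 0.5 µM (0.17, interval -0.16 to 0.50).

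Of the 3 HEXIM1 probe sets at the floor 2 passed higher, with differences between 0.09 and 1.25 over the 3. In the probe set that stood for it, HEXIM1 went up at both steps. It read 2045 and 2113 in vehicle, 5755 and 5176 at 0.5 µM and 10189.8 and 9686 at 10 µM (log2 difference 0.86 ± 0.13 (SE), adjusted p = 0.0206), with no overlap, and its second step was under 2-fold. Without the first array at 10 µM it no longer passed (adjusted p = 0.11). BRD2 read 2348 and 2424 in vehicle, 5659 and 5222 at 0.5 µM and 8029 and 8418 at 10 µM (log2 difference 0.60 ± 0.12 (SE), adjusted p = 0.0487), and did not pass without any 1 of the treated arrays (0.115 to 0.213) or with median centring (0.17). BRD3 read 2596 and 2477 at 10 µM, against 2789 and 2936 at 0.5 µM (-0.17, interval -0.56 to 0.21). Of the 12 genes of the BET and P-TEFb list, all detected, HEXIM1 and BRD2 were the 2 that passed (16.7% higher, with 2.67% of all detected genes).

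The group that moved back towards vehicle was small when the 2-fold minimum was kept and larger without it. With it, 5 probe sets and 1 named gene moved back up, the uncharacterised transcript LOC105370178 (limma adjusted p = 0.0711). Its signals were 157 and 114 in vehicle, 43.5 and 28.4 at 0.5 µM and 110.4 and 172 at 10 µM. The 0.5 µM arrays lay under the floor, so no size over 2-fold can be read for it. LOC105370178 did not pass without any 1 of the treated arrays. Those 5 probe sets became 10 with all 24 arrays in the fit, 20 and 23 without the first and the second array at 0.5 µM, 11 without the second vehicle array and 3 without the first at 10 µM. Without the fold minimum, 41 of the 876 probe sets lower at 0.5 µM passed higher at 10 µM and 83 passed lower. By gene, of 495 that were lower at 0.5 µM, 25 passed higher and 53 passed lower, and 16 of the 25 were on the mitosis list. All 77 detected mitosis genes had passed lower at 0.5 µM against vehicle, with a median of -1.67. Many were thus among the 495 to begin with, and their share of the 495 was not counted, so 16 of 25 cannot be read as an excess. The 495 were also picked on the 0.5 µM arrays that the second step uses, which by itself favours higher values at 10 µM. The mitosis list, like all gene lists here, was written from general knowledge with results of these data in view. Of the 459 probe sets higher at 0.5 µM, 54 passed higher and 7 passed lower.

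Mitotic genes act in the G2 phase and in division itself, and encode the spindle, the kinetochore, its checkpoint, condensin and the machinery of cytokinesis. All 77 detected members of the list were lower than vehicle at 0.5 µM by the test, with a median of -1.67. Between 0.5 and 10 µM 18 passed higher (23.4%, with 2.67% of all detected genes), 1 passed lower and 58 did not pass, and the median was 0.35. In 50 members both arrays at 10 µM lay above both at 0.5 µM and in 6 below; over all detected genes the shares were 30.9% above and 32.8% below. The list stayed below vehicle at 10 µM, with 76 of 77 members negative, 71 lower by the test and a median of -1.38.

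BUB1, a kinase of the spindle checkpoint, read 1155 and 1049.6 in vehicle, 413 and 381 at 0.5 µM and 795 and 768 at 10 µM (log2 difference 0.98 ± 0.11 (SE), adjusted p = 0.00733). It passed with any treated array left out, which KIF18A, CENPF and TTK did not. KIF18A, a kinesin that sets chromosome alignment, read 320.0 and 249.8 in vehicle, 129 and 159 at 0.5 µM and 261 and 325 at 10 µM (log2 difference 1.03 ± 0.17 (SE), adjusted p = 0.0255), so its 10 µM arrays overlapped with vehicle; it was the 1 member called over 2-fold, and did not pass without the first array at 0.5 µM (0.116) or the second at 10 µM (0.135). CENPF, a kinetochore protein, read 1456 and 1667 in vehicle, 485 and 773 at 0.5 µM and 1219 and 1064 at 10 µM (log2 difference 0.90 ± 0.21 (SE), adjusted p = 0.0819), and TTK, the checkpoint kinase MPS1, read 1005 and 1006 in vehicle, 278 and 267 at 0.5 µM and 575 and 426 at 10 µM (log2 difference 0.86 ± 0.17 (SE), adjusted p = 0.0462). Chosen after their values were seen, CDC20, the activator of the anaphase-promoting complex, read 4131 and 4153 in vehicle, 1432 and 1352 at 0.5 µM and 2469 and 2336 at 10 µM (log2 difference 0.79 ± 0.12 (SE), adjusted p = 0.0206) and NCAPG, a condensin subunit, read 1477 and 1565 in vehicle, 250.9 and 293 at 0.5 µM and 474 and 469 at 10 µM (log2 difference 0.80 ± 0.12 (SE), adjusted p = 0.0172). ZWILCH, a kinetochore protein, was the 1 member that passed lower (1552 and 1559 at 10 µM, against 2065 and 2226 at 0.5 µM).

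The count of 18 mitotic genes depended on the fit. It became 5 with median centring, which lowers every difference by 0.07, 1 in the fit of the arrays labelled VCaP and LNCaP, 0 with the 4 arrays alone, and 6, 4 and 7 without the first array at 0.5 µM, the first at 10 µM and the second at 10 µM. The list's median lay between 0.28 and 0.38 in all of these fits. In the fit of the arrays labelled VCaP and LNCaP and that of the 4 arrays alone it could not move. There each difference comes from the same 4 arrays as in the main fit. With all 24 arrays in the fit the count of 18 rose to 24.

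DNA replication genes, which act in S phase as helicase, polymerases, clamp and nucleotide supply, passed in the other direction where they passed. Of 51 detected members 48 were lower than vehicle at 0.5 µM by the test, with a median of -1.41, and at 10 µM the median was -1.65. Between the concentrations none passed higher, 10 passed lower (19.6%, with 3.05% of all detected genes) and 41 did not pass, and the median was -0.27. In 34 members both arrays at 10 µM lay below both at 0.5 µM and in 8 above, with the same 32.8% and 30.9% over all detected genes.

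Besides UHRF1, DTL, which directs the ubiquitin ligase that degrades CDT1 in S phase, read 2311 and 2335 in vehicle, 315 and 380.1 at 0.5 µM and 78.6 and 131 at 10 µM (log2 difference -1.77 ± 0.21 (SE), adjusted p = 0.0094). MCM5, a subunit of the replicative helicase, read 2328 and 2371 in vehicle, 376 and 433 at 0.5 µM and 174 and 158 at 10 µM (log2 difference -1.28 ± 0.19 (SE), adjusted p = 0.0176). RRM2, the regulated subunit of ribonucleotide reductase, read 8435 and 8130.0 in vehicle, 1253 and 1592 at 0.5 µM and 708 and 633 at 10 µM (log2 difference -1.08 ± 0.15 (SE), adjusted p = 0.0134). These 4 were the members called over 2-fold, and all 4, UHRF1 included, passed with any treated array left out. MCM2 (699 and 759 at 10 µM, against 1369 and 1388 at 0.5 µM), MCM7 (771 and 637 at 10 µM, against 1239 and 1238 at 0.5 µM), CDC6, POLD3, POLE2 and MCM10 passed with smaller differences of -0.92 to -0.61. The count of 10 was 6 with any 1 of the treated arrays left out, 2 in the fit of the arrays labelled VCaP and LNCaP, and 15 with all 24 arrays. E2F8, an E2F repressor of the G1/S list, had a mean just over the floor at 0.5 µM (97.6 and 108, with 722 and 837 in vehicle) and 37.7 and 51.4 at 10 µM (adjusted p = 0.0243). Its 10 µM arrays lay under the floor, so no size over 2-fold can be read for E2F8. E2F3 gave 294 and 244 at 10 µM, against 545 and 555 at 0.5 µM (log2 difference -1.04 ± 0.18 (SE), adjusted p = 0.0282). Of the 2 E2F3 probe sets at the floor 1 passed lower, and the other differed by -0.37. The CDK inhibitor CDKN2D, on the same list, gave 1255 and 1119 at 10 µM, against 729 and 653 at 0.5 µM (log2 difference 0.78 ± 0.13 (SE), adjusted p = 0.0265). E2F8, E2F3 and CDKN2D each did not pass without at least 1 of the arrays.

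**Figure D3:**
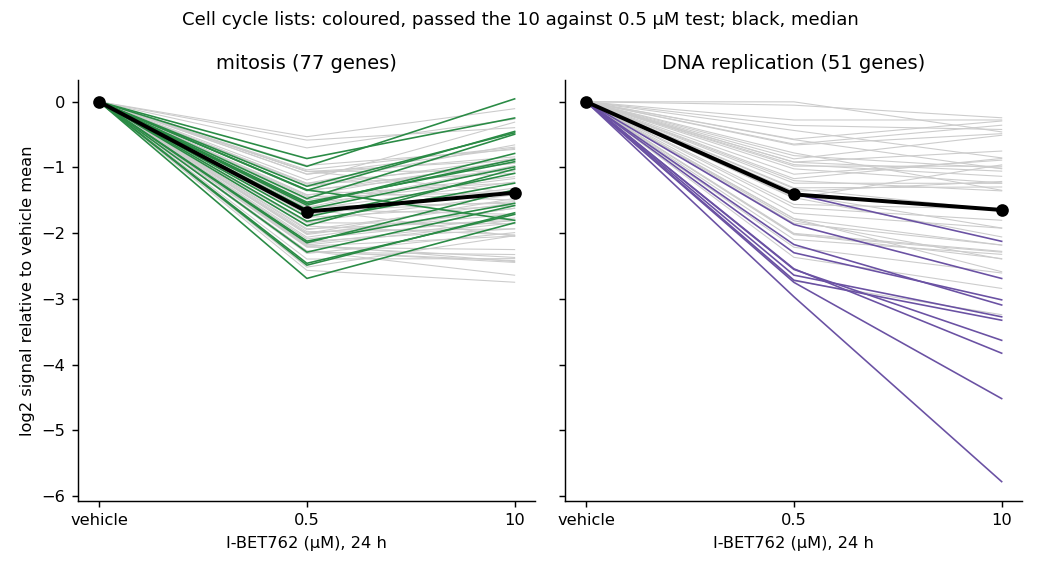
Log2 signal relative to the vehicle mean (vertical) at vehicle, 0.5 µM and 10 µM for the 77 mitosis genes (left) and the 51 DNA replication genes (right) detected on the arrays labelled VCaP; each thin line is a gene, coloured where it passed between 10 and 0.5 µM, and the black line is the median. The mitosis median lies at -1.67 and then -1.38, and the replication median at -1.41 and then -1.65.

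Promoter letters were set beside these 2 lists, whose medians lay on opposite sides of 0. Windows from 250 bases before to 50 after the transcript start came from RefSeq (GRCh38.p14) and were searched on both strands for TTTGAA (the cell cycle homology region, known from G2 and mitotic genes), CCAAT (bound by NF-Y) and GGCGGGAA (a letter string of E2F sites), none of which contains another. Of 63 mitosis promoters matched, 68.3% held TTTGAA, with 2.22% of 45 matched replication promoters and 15.4% of all 27305 in the RefSeq set. CCAAT was in 71.4%, 57.8% and 35.7% in the same order, and GGCGGGAA in 9.52%, 24.4% and 3.18%. Of the 16 matched promoters of mitotic genes that passed higher, 12 held TTTGAA, against 43 of the 63. A match is a run of letters and not a shown site, and a missing match says only that the letters are not in the window. Shown are the 3 mitotic genes BUB1, KIF18A and CENPF, which passed higher at 10 µM, and the replication genes UHRF1 and RRM2, which fell further. BUB1, which passed with any treated array left out, holds CCAAT without TTTGAA, as do UHRF1 and RRM2, while KIF18A and CENPF hold both. MCM2 and POLE2, which passed lower, hold none of the 3 letter strings. Capitals mark each match on either strand, and each window runs 5′ to 3′ along its gene.
BUB1, chr2:110678014-110678313, minus strand: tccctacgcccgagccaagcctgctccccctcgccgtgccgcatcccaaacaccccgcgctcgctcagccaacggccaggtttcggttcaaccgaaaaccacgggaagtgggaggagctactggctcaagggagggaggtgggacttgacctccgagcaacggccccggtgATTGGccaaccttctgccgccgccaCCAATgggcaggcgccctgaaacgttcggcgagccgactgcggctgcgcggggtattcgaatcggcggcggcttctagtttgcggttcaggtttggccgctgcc
KIF18A, chr11:28108107-28108406, minus strand: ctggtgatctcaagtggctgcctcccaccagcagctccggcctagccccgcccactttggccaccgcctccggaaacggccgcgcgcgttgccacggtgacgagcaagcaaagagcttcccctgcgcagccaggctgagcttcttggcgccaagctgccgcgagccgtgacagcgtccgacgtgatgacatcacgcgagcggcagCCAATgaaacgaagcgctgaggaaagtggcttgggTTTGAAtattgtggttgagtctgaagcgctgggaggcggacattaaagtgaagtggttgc
CENPF, chr1:214602945-214603244, plus strand: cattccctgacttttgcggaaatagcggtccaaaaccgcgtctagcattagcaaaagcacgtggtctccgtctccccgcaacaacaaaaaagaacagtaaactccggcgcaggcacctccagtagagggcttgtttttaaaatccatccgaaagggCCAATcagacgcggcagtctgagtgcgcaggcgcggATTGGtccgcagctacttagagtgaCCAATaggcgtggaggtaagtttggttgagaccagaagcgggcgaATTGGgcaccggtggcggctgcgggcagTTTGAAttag
UHRF1, chr19:4909251-4909550, plus strand: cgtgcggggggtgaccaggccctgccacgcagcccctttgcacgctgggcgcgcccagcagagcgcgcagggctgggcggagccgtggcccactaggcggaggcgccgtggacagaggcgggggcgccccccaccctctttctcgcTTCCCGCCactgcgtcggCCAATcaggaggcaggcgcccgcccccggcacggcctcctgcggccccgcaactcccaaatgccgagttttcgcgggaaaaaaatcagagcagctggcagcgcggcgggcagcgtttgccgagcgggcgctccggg
RRM2, chr2:10122489-10122788, plus strand: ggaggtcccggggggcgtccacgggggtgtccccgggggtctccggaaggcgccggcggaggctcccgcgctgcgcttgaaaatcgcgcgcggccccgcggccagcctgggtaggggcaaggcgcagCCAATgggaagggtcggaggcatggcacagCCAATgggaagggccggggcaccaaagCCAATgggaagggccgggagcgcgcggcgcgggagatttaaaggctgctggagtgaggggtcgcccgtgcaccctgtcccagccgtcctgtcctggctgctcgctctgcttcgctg

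BUB1 holds 2 CCAAT, on opposite strands. KIF18A holds 1 CCAAT and 1 TTTGAA close to its start, and CENPF holds 4 CCAAT, read on both strands, with 1 TTTGAA after its start. UHRF1 holds 1 GGCGGGAA, on the other strand, next to 1 CCAAT. RRM2 holds 3 CCAAT in a row.

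Of 21 detected histone genes of the clusters 6 passed higher (28.6%, with 2.67% of all detected genes), none lower and 15 did not pass, and the median was 0.37, after a median of 0.60 at 0.5 µM against vehicle. Besides H3C2, H2AC8 read 929.6 and 879 in vehicle, 2530.1 and 2188 at 0.5 µM and 4451 and 4178 at 10 µM (log2 difference 0.87 ± 0.13 (SE), adjusted p = 0.0154) and H2BC6 gave 8219 and 7181 at 10 µM, against 4291 and 4389.7 at 0.5 µM (log2 difference 0.82 ± 0.13 (SE), adjusted p = 0.0241). H2BC17 gave 557 and 581 at 10 µM, against 244 and 262 at 0.5 µM (log2 difference 1.17 ± 0.27 (SE), adjusted p = 0.083), and did not pass without any 1 of the treated arrays. H2BC12 gave 17505 and 16512 at 10 µM, against 17282 and 16919 at 0.5 µM and did not pass (-0.01, interval -0.25 to 0.23). The coding sequences of these genes are nearly alike, so a probe set may read more than 1 of them. The count of 6 was 0 with the 4 arrays alone, 1 in the fit of the arrays labelled VCaP and LNCaP, 3 with median centring and 2 and 3 without the first and the second array at 10 µM.

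Of 32 detected androgen-regulated genes 4 passed lower (12.5%, with 3.05% of all detected genes), 2 higher (6.25%, with 2.67%) and 26 did not pass, with a median of -0.25. SPDEF and PMEPA1, an inhibitor of TGF-beta signals (1725 and 1573 at 10 µM, against 2827 and 3199 at 0.5 µM, log2 difference -0.87 ± 0.16 (SE), adjusted p = 0.0366), passed lower, and SGK1, a serine/threonine kinase (2194 and 1941 at 10 µM, against 988 and 956 at 0.5 µM, log2 difference 1.09 ± 0.14 (SE), adjusted p = 0.0098), and NCAPD3, a condensin II subunit (4215 and 4195 at 10 µM, against 2281 and 2186 at 0.5 µM, log2 difference 0.91 ± 0.11 (SE), adjusted p = 0.008), passed higher. PMEPA1 did not pass in 3 of the 4 fits with a treated array left out. TRIB1 and TSC22D3, chosen after their values were seen, had differences of -0.70 and -0.57. The count of 4 was 2 without an array at 0.5 µM and 1 without an array at 10 µM. It was 0 with the 4 arrays alone, 3 with median centring, 5 with all 24 arrays and 6 in the fit of the arrays labelled VCaP and LNCaP.

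The secretory proteases had large differences that did not pass in the probe sets that stood for them. KLK3, which encodes PSA, read 20204 and 20567 in vehicle, 16742 and 17203 at 0.5 µM and 5397 and 4199 at 10 µM, with no overlap (log2 difference -1.83 ± 0.73 (SE), adjusted p = 0.314). KLK2 read 10093 and 10603 in vehicle, 4762 and 5174 at 0.5 µM and 844 and 681 at 10 µM (log2 difference -2.71 ± 1.08 (SE), adjusted p = 0.317), and 2 of its 3 probe sets at the floor passed lower. TMPRSS2, a surface protease, gave 5242 and 4219.7 at 10 µM, against 11264 and 12269.5 at 0.5 µM (log2 difference -1.32 ± 0.61 (SE), adjusted p = 0.397). Of the 4 TMPRSS2 probe sets at the floor 1 passed lower, with differences between -1.35 and -1.06 over the 4. None of the 3 KLK3 probe sets at the floor passed. CCND1, which encodes cyclin D1, gave 574 and 452 at 10 µM, against 1385 and 1525 at 0.5 µM (log2 difference -1.51 ± 0.64 (SE), adjusted p = 0.353). KLK3, KLK2 and TMPRSS2 read under 200 on every PC3 and NCI-H660 array, and those arrays share in the spread. Whether this is why the 3 genes did not pass was not tested. With only the 8 treated arrays labelled VCaP and LNCaP, a fit added after the data were seen, KLK3 (adjusted p = 0.0831), TMPRSS2 (0.0891) and CCND1 (0.0891) passed lower; over all alternatives their adjusted p lay between those values and 0.64, 0.714 and 0.68.

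**Figure D4:**
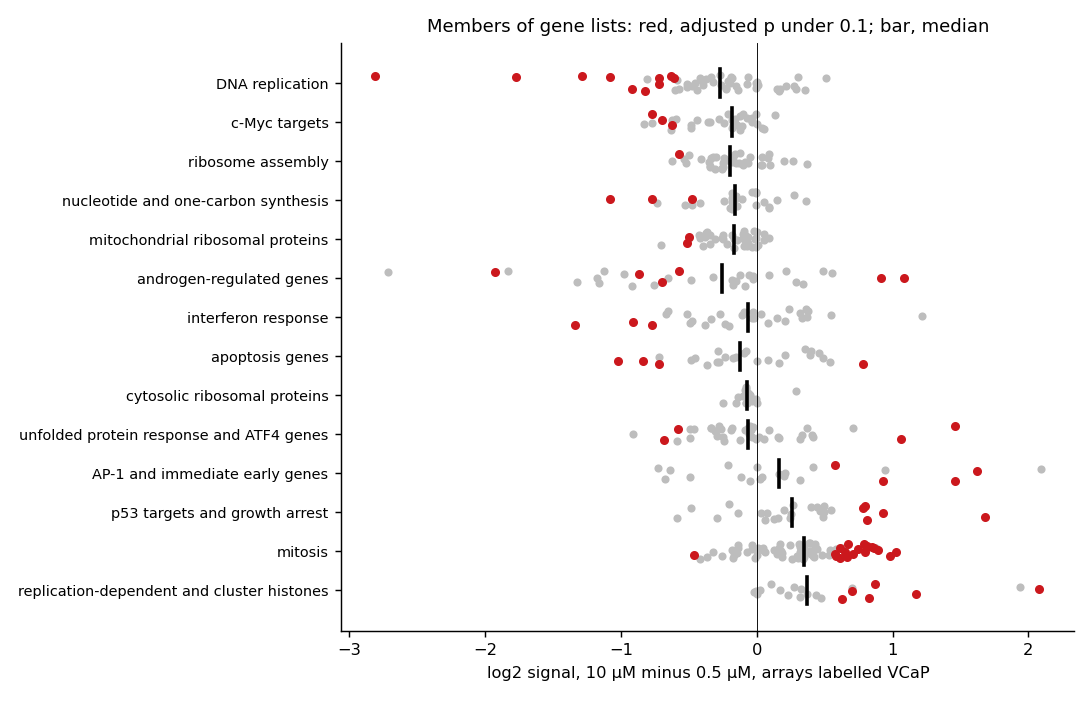
Log2 signal at 10 µM minus 0.5 µM on the arrays labelled VCaP (horizontal) for the detected members of 14 gene lists; each dot is a gene, red where its adjusted p is under 0.1, and the black bar is the list's median. The medians run between -0.27 for DNA replication and 0.37 for the histone genes, with -0.002 over all detected genes.

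Growth-related lists had medians below 0 with few members past the test. Of all detected genes 3.05% passed lower. Of 34 c-Myc targets 3 (8.82%) passed lower (NME1, NOP16 and SRM, -0.77, -0.70 and -0.62) and none higher, with a median of -0.18. Of 39 ribosome assembly genes WDR74 passed lower (2.56%, -0.57), with a median of -0.20, and of 41 mitochondrial ribosomal proteins MRPS12 and MRPL4 did (4.88%, -0.51 and -0.50), with a median of -0.17. None of the 25 cytosolic ribosomal proteins passed by limma, and their median was -0.07. None of the 6 genes named here passed without any 1 of the treated arrays. The E-box letters CACGTG, bound by c-Myc, were in 44.8% of 29 matched c-Myc target promoters and 7.43% of all promoters in the RefSeq set.

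Of 26 p53 target and growth arrest genes 5 passed higher (19.2%, with 2.67% of all detected genes) and none lower, with a median of 0.26. Besides CDKN2B these were KLF6 (1368 and 1309.8 at 10 µM, against 705 and 700.5 at 0.5 µM, log2 difference 0.93 ± 0.11 (SE), adjusted p = 0.0098), GADD45A, a DNA damage response gene (2344 and 2239 at 10 µM, against 1352 and 1287 at 0.5 µM, log2 difference 0.80 ± 0.12 (SE), adjusted p = 0.0174), CDKN1C and CDKN2D. CDKN1A, the CDK inhibitor p21, read 2428 and 2454 in vehicle, 1992 and 1812 at 0.5 µM and 2686 and 2562 at 10 µM and did not pass (log2 difference 0.47 ± 0.12 (SE), adjusted p = 0.111). The count of 5 was 3 with median centring, without the second array at 0.5 µM or without the first at 10 µM. Of 21 AP-1 and immediate early genes 4 (19%) passed higher (JUN, ATF3, KLF6 and IER5) and none lower, with a median of 0.16. IER5 did not pass without any 1 of the treated arrays, nor CDKN1C in 3 of those 4 fits.

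Among 26 apoptosis genes BOK, TNFRSF10A and BIK passed lower (11.5%, with 3.05% of all detected genes, -1.02, -0.83 and -0.72) and APAF1, the scaffold of the apoptosome, was higher (153 and 147 at 10 µM, with 0.5 µM under the floor). BCL2, the anti-apoptotic founder of its family, lay under the floor in the probe set that stood for it (17.5 and 25.6 at 10 µM, against 68.5 and 67.2 at 0.5 µM), and its 1 probe set at the floor differed by 0.35. TNFRSF10A, BIK and APAF1 did not pass without any 1 of the treated arrays. Of 30 interferon response genes PARP9, IFITM2 and ISG15 passed lower (10%, -1.34, -0.91 and -0.77) and none higher; without 1 treated array IFITM2 passed in none of the 4 fits and ISG15 did not in 3. Of the other named list members, ELOVL6, an elongase of fatty acids, passed lower (-0.72), as did the DNA repair genes PALB2 and BRIP1 (-0.61 and -0.48), and SLC38A2, a transporter of neutral amino acids, passed higher (0.65). MAP1LC3B, a protein of the autophagosome, was higher (0.49) and TFE3, a factor for lysosome genes, lower (-0.55). Of the 3 TFE3 probe sets at the floor 1 passed lower, and another differed by 0.07. ELOVL6, BRIP1, SLC38A2, MAP1LC3B and TFE3 did not pass without any 1 of the treated arrays, and PALB2 did not in 3 of the 4 fits. ARRDC3, an arrestin-domain relative of TXNIP, gave 1943 and 1942 at 10 µM, against 839 and 891 at 0.5 µM (log2 difference 1.17 ± 0.14 (SE), adjusted p = 0.008).

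A last group was called between the concentrations without a place in the classes above. PIK3IP1, an inhibitor of PI3 kinase, gave 411 and 426 at 10 µM, against 953 and 974 at 0.5 µM (log2 difference -1.20 ± 0.16 (SE), limma adjusted p = 0.0128). Of its 3 probe sets at the floor 1 passed lower, and the smallest difference was -0.03. RAMP1, a partner of the calcitonin receptor-like receptor, gave 1657 and 1638 at 10 µM, against 3797 and 3787 at 0.5 µM (log2 difference -1.20 ± 0.20 (SE), limma adjusted p = 0.0267). PIK3IP1 passed with any treated array left out and RAMP1 with none. Vehicle lay between the concentrations in PIK3IP1 (798 and 853) and in RAMP1 (3103 and 2925), and NRP1, a semaphorin and VEGF co-receptor, had the same pattern (398 and 344 in vehicle, 484 and 575 at 0.5 µM and 274 and 219 at 10 µM). LOC154761, PHKG1, DISP3 and DPYSL3 were higher at 10 µM from 0.5 µM means under the floor, at least 1.14-, 1.07-, 1.59- and 1.28-fold, and P2RX6 was lower, at least 1.03-fold. The probe set of DISP3 that was brightest on the arrays labelled VCaP differed by 0.15 and did not pass. PHKG1 and DPYSL3 did not pass in 3 of the 4 fits with a treated array left out, nor NRP1 and P2RX6 in 2.

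The same step in the other labelled lines called 819 probe sets for labelled LNCaP (1.5%, with 0.811% higher and 0.688% lower), 52 in PC3 (0.0952%, 0.0568% higher and 0.0385% lower) and 190 in NCI-H660 (0.348%, 0.0879% higher and 0.26% lower). The difference between labelled VCaP and each of them was tested as an interaction. It was called for 227 probe sets against labelled LNCaP (0.416%, with 75 or 0.137% higher and 152 or 0.278% lower), 128 against PC3 (0.234%, with 65 or 0.119% higher and 63 or 0.115% lower) and 103 against NCI-H660 (0.189%, with 52 or 0.0952% higher and 51 or 0.0934% lower). With median centring these became 32 higher and 130 lower, 16 and 54, and 11 and 46.

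The change of CD274 was called different from that of all 3. On the arrays labelled LNCaP it was under the floor at both concentrations, in PC3 it read 544 and 568 at 10 µM, against 672 and 669 at 0.5 µM, and in NCI-H660 82.9 and 84.9, against 144 and 84.2. The difference of changes from PC3, the brightest of the 3 for CD274, was -2.40 ± 0.29 (SE, adjusted p = 0.0278). NCAPD3 gave differences of changes of 1.36 from labelled LNCaP (adjusted p = 0.0143), 1.04 from PC3 (0.0463) and 1.02 from NCI-H660 (0.0751). TSPAN5 was called different from all 3 as well, but its 0.5 µM arrays labelled VCaP lay under the floor. With that mean raised to the floor its differences were 0.94 from labelled LNCaP, 0.98 from PC3 and 0.74 from NCI-H660, each under 2-fold, so no size over 2-fold can be read for it.

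MYC changed by -1.35 on the arrays labelled VCaP, against -0.37 on those labelled LNCaP, -0.08 in PC3 and 0.58 in NCI-H660. The difference of changes was -0.98 from labelled LNCaP (adjusted p = 0.0598, under 2-fold), -1.28 from PC3 (0.0309) and -1.93 from NCI-H660 (0.00783). UHRF1 differed from PC3 (-2.47, 0.0251) and NCI-H660 (-2.59, 0.0251), and the difference from labelled LNCaP did not pass (-0.83, 0.341). With its 10 µM mean raised to the floor the UHRF1 differences were -1.51 and -1.62. ATF3 rose less than on the arrays labelled LNCaP (-1.40, 0.0174) and more than in PC3 (1.06, 0.0604).

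The mitosis list had a median of 0.35 on the arrays labelled VCaP, against -0.02 on those labelled LNCaP, -0.27 in PC3 and -0.06 in NCI-H660, over the same 77 genes. The interaction passed for 6 members against PC3, all higher on the arrays labelled VCaP, with 32 higher and 33 lower of all 11564 detected genes, and for none against labelled LNCaP or NCI-H660 by limma. DNA replication genes had medians of -0.27, -0.39, -0.23 and 0.01 in the same order of lines, and histone genes 0.37, 0.72, 0.72 and 0.62.

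**Figure D5:**
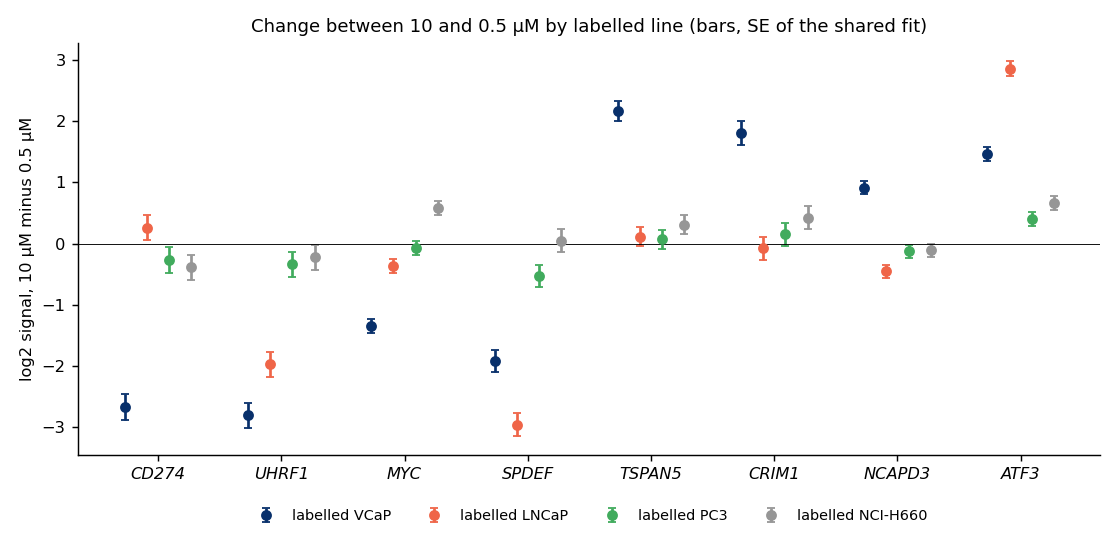
Log2 signal at 10 µM minus 0.5 µM (vertical) for 8 genes in each labelled line; dots are the fitted differences and bars the standard error of the shared fit. CD274 lies at -2.67 on the arrays labelled VCaP with the other lines between -0.39 and 0.26, NCAPD3 lies above the other lines, TSPAN5 and CRIM1 do too from 0.5 µM signals under the floor on the arrays labelled VCaP, and ATF3 lies between labelled LNCaP and the rest.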

How the data were processed

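RNA of the 24 cultures was profiled on Affymetrix Human Genome U133 Plus 2.0 arrays. Per the study's methods the authors made MAS5 signals scaled to a common target; the deposited values are these intensities on a linear scale. The MAS5 version is not given in the sources used here. Of 54675 probe sets 62 controls were left out; 41091 of the others had 1 symbol, 1801 several and 11721 none, and some genes are not reported here. Log2 signals of the 16 treated arrays were fitted with limma 3.58.1 (R 4.3.3) as group means with Benjamini-Hochberg adjustment; contrasts with vehicle came from all 24. A gene stood as its probe set with the highest mean over the 24 arrays, with cross-hybridising sets (_x_at) used only where no other was present. Precision is limited by 2 arrays to a group.

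Named were up to 4 genes per class and direction with the largest differences and separate arrays, up to 4 per gene list among those that passed, BET inhibitor response genes and line markers; others are marked as chosen after their values were seen. Members and lists were chosen with earlier results of these data known. The fit was tested on simulated data. Alternatives covered scaling, arrays in the fit, floor, offset, spread model, thresholds, probe set, replicate number and arrays left out.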

Additional observations from a re-analysis of the deposited data

Results flagged for a closer look

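For these named genes the change between 10 and 0.5 µM on the arrays labelled VCaP differed from the change in another line by limma's test of the difference itself, with an adjusted p under 0.1 and a difference over 2-fold. Values are log2 change on the arrays labelled VCaP minus log2 change in the other line. Groups of 2 arrays are too small to test for a single array that stands apart. No explanation was tested for any of them.

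Among genes lower at 10 µM on the arrays labelled VCaP, the change differed for UHRF1 by -2.47 from PC3 (adjusted p = 0.0251) and -2.59 from NCI-H660 (adjusted p = 0.0251), and MYC by -1.28 from PC3 (adjusted p = 0.0309) and -1.93 from NCI-H660 (adjusted p = 0.00783). The checkpoint ligand and the luminal factor also differed, CD274 by -2.94 from labelled LNCaP (adjusted p = 0.00966), -2.40 from PC3 (adjusted p = 0.0278) and -2.28 from NCI-H660 (adjusted p = 0.0423), and SPDEF by -1.97 from NCI-H660 (adjusted p = 0.0468). The transporter, the synaptotagmin and the kinase inhibitor differed, SLC16A14 by -1.35 from labelled LNCaP (adjusted p = 0.0846), SYT4 by -1.59 from labelled LNCaP (adjusted p = 0.0981) and -1.79 from PC3 (adjusted p = 0.0861), and PIK3IP1 by -1.27 from labelled LNCaP (adjusted p = 0.0765) and -1.36 from PC3 (adjusted p = 0.0794). Of genes on the lists, the change differed for PMEPA1 by -2.22 from NCI-H660 (adjusted p = 0.0174), GATA2 by -1.14 from labelled LNCaP (adjusted p = 0.0689), and BIK by -1.23 from labelled LNCaP (adjusted p = 0.0737). The same held for ISG15 by -1.23 from PC3 (adjusted p = 0.065), TFE3 by -1.09 from labelled LNCaP (adjusted p = 0.0653), and PFKFB4 by -1.62 from labelled LNCaP (adjusted p = 0.0386).

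Among genes higher at 10 µM on the arrays labelled VCaP, those with differences from all 3 lines were TSPAN5 by 2.06 from labelled LNCaP (adjusted p = 0.0137), 2.10 from PC3 (adjusted p = 0.0164) and 1.86 from NCI-H660 (adjusted p = 0.034), and NCAPD3 by 1.36 from labelled LNCaP (adjusted p = 0.0143), 1.04 from PC3 (adjusted p = 0.0463) and 1.02 from NCI-H660 (adjusted p = 0.0751). Differences from 2 lines were found for CRIM1 by 1.89 from labelled LNCaP (adjusted p = 0.0323) and 1.66 from PC3 (adjusted p = 0.0673), DNAJC6 by 1.42 from PC3 (adjusted p = 0.0423) and 1.22 from NCI-H660 (adjusted p = 0.0916), and CDKN2B by 1.502 from PC3 (adjusted p = 0.0616) and 1.39 from NCI-H660 (adjusted p = 0.0958). ATF3 differed in opposite directions, by -1.40 from labelled LNCaP (adjusted p = 0.0174) and 1.06 from PC3 (adjusted p = 0.0604). Growth arrest and stress genes differed, KLF6 by 1.24 from PC3 (adjusted p = 0.033), DDIT3 by 1.10 from labelled LNCaP (adjusted p = 0.0661), and CDKN1C by -2.09 from labelled LNCaP (adjusted p = 0.0226). The AP-1 subunit, the alpha-tubulin and the spindle checkpoint kinase differed, JUN by 1.59 from PC3 (adjusted p = 0.0379), TUBA1A by 1.27 from NCI-H660 (adjusted p = 0.0894), and BUB1 by 1.04 from PC3 (adjusted p = 0.0526). The others were SGK1 by 1.16 from NCI-H660 (adjusted p = 0.092), ARRDC3 by 1.30 from NCI-H660 (adjusted p = 0.0751), VIM by 1.39 from labelled LNCaP (adjusted p = 0.0813), and LOC154761 by 2.84 from NCI-H660 (adjusted p = 0.0999).

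The other line was under the floor of 100 at both concentrations for CD274 in labelled LNCaP (highest group mean 94.1), PMEPA1 in NCI-H660 (91.5) and SYT4 in PC3 (54.1), so these 3 differences set a change against dim signals. On the arrays labelled VCaP 1 of the concentrations was under the floor for 6 genes with 12 of the differences, UHRF1 and SYT4 at 10 µM and TSPAN5, CRIM1, CDKN2B and LOC154761 at 0.5 µM. With that mean raised to the floor, 3 of the 12 stayed over 2-fold (UHRF1 at -1.51 from PC3 and -1.62 from NCI-H660, SYT4 at -1.19 from PC3), and 9 were under 2-fold, among them all of TSPAN5 (0.74 to 0.98), CRIM1 (0.54 and 0.77), CDKN2B (0.75 and 0.86) and LOC154761 (0.504). For those 9 the values above are measured differences and no size over 2-fold can be read. CDKN1C changed by 0.81 on the arrays labelled VCaP, against 2.90 on those labelled LNCaP. PIK3IP1, GATA2, CDKN1C and TFE3 each had 3 probe sets at the floor on the arrays labelled VCaP, of which 1 passed between the concentrations. Other probe sets of these genes reached -0.03, 0.23, -0.07 and 0.07 in the same order.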

How the results depend on the processing

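The 349 probe sets called were 687 with no floor, 1024 with a fold minimum of 1.5, 157 in the 8 treated arrays labelled VCaP and LNCaP (chosen after seeing the data), and 0 with the 4 treated or all 6 arrays labelled VCaP alone, where limma gave 644 and 676 over 2-fold at an unadjusted p under 0.05. They were 221 to 293 with 1 treated array left out and 253 to 462 under the other alternatives. Of 103 named genes, 77 kept their direction and side of the threshold with median centring, 99 with quantile normalization, 97 with all 24 arrays in the fit, 100 with the probe set brightest on the arrays labelled VCaP (where MRPL4 was -0.35 and DISP3 0.15, neither passing), 36 in the 8 arrays and 18 in the 4. Of the 85 that passed, 34 passed with any 1 treated array left out. Centring moved the median difference between the concentrations by -0.07 and that between 10 µM and vehicle by -0.13. Signals under the floor of 100 give only bounds. Apart from fits with fewer arrays, the cause of these shifts was not tested.

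With the replicate number as a block 40 probe sets were called (650 over 2-fold at an unadjusted p under 0.05), and 30 of the 103 named genes kept their side. In this block fit 0 mitosis, 0 histone, 1 p53 and arrest and 2 AP-1 genes were higher, and 2 DNA replication and 0 androgen-regulated genes lower. Deviations of same-numbered arrays correlated at -0.02 to 0.01 (across 22388 probe sets), so the numbers gave no pairing.

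The 18 mitosis genes higher were 24 with all 24 arrays, 5 with median centring, 1 in the 8 arrays, 0 in the 4 and 4 to 12 with an array left out. The 10 DNA replication genes lower were 15 with all 24 arrays, 2 in the 8 arrays, 0 in the 4 and 6 with any array left out. The 6 histone genes higher were 3 with centring, 1 in the 8 arrays, 0 in the 4 and 2 to 4 with an array left out. The 5 p53 and arrest genes higher were 7 with all 24 arrays, 3 with centring, 2 in the 8 arrays, 0 in the 4 and 3 to 5 with an array left out. In the 4 arrays 0 of the 4 AP-1 genes passed higher and 0 of the 4 androgen-regulated genes lower, and the androgen count was 1 to 2 with an array left out. The androgen count was 6 in the 8 arrays and 5 with all 24 arrays.

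With the limit for holding at 1.5-fold, 163 probe sets were held low and 59 held high, and 665 low and 376 high could not be placed. Those that moved back up were 10 with all 24 arrays in the fit and 2 at an adjusted p under 0.05. Called probe sets outside the classes (39 higher, 20 lower) were 19 higher with centring and 21 at an adjusted p under 0.05, and 31 lower with all 24 arrays. Leaving out 1 of the 6 arrays gave 23 to 42 that fell further, 3 to 23 back up, 1 to 7 back down, 52 to 92 higher and 72 to 137 lower at 10 µM only, 15 to 45 higher and 12 to 22 lower outside the classes, and 233 to 459 low ones that could not be placed. With centring the change differed from PC3 for 70 in place of 128 probe sets and from NCI-H660 for 57 in place of 103.

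The sign turned for 5 named genes, none of which passed. BCL2 was 0.35 in its other probe set. EZH2 was -0.027 with centring and -0.12 to 0.20 with an array left out. ATP6AP1L was -0.16 to 0.32 with an array left out (-0.16 and -0.08 without the second array at 0.5 µM and at 10 µM). H2BC12 was 0.0072 with quantile normalization and -0.050 to 0.034 with an array left out. MLKL was -0.020 to 0.2999 with an array left out, below 0 without the second array at 0.5 µM.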

Other observations

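Markers of epithelial identity had medians on either side of 0 between 10 and 0.5 µM. Over all detected genes 2.67% passed higher and 3.05% lower. Of 16 detected luminal epithelial markers, OCLN, a protein of tight junctions, and ESRP1, an epithelial splicing factor, passed lower (12.5%). Their differences were -0.58 and -0.48 (limma adjusted p = 0.0641 and 0.0886), none passed higher and the median was -0.27. Of 8 detected basal and mesenchymal markers VIM was the 1 that passed, higher (12.5%), with a median of 0.22. Of 12 detected luminal prostate regulators SPDEF and GATA2, a zinc-finger transcription factor (-0.62, limma adjusted p = 0.0742), passed lower (16.7%). SOX4 passed higher (8.33%, 0.62, limma adjusted p = 0.0641). Of the 3 GATA2 probe sets at the floor 1 passed lower, and another differed by 0.23. Of 11 neuroendocrine and secretory markers SERPINI1 passed higher and SYT4 lower (9.09% each way), with a median of 0.17.

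Of 28 nucleotide and one-carbon synthesis genes RRM2, NME1 and ATIC, which closes the purine ring (-0.48, limma adjusted p = 0.0718), passed lower (10.7%). None passed higher and the median was -0.16. Of 33 glycolysis and hypoxia genes PFKFB4, which sets the level of a glycolytic activator, passed lower (-0.81, limma adjusted p = 0.0565) and ARRDC3 higher. That is 3.03% each way, near the 3.05% lower and 2.67% higher of all detected genes. GATA2, SOX4, OCLN, ESRP1, PFKFB4 and ATIC did not pass without any 1 of the treated arrays.

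Chosen after their values were seen, JAK1, a kinase of cytokine receptors, gave 393 and 412 at 10 µM, against 210.1 and 187 at 0.5 µM (1.02, adjusted p = 0.0098), and SERPINE2, a secreted protease inhibitor, gave 1090.0 and 1021 at 10 µM, against 484 and 391 at 0.5 µM (1.28, adjusted p = 0.0117).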
